A study of Mus musculus with 24 samples.

Results

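The genes described here are 31 genes of fatty acid oxidation, ketone body metabolism and the response to the nuclear receptor PPAR-alpha, followed in liver and small intestine of mice without caspase-1. They were taken by name, and each gene was read from 1 probe set, the brightest by its mean across the 24 arrays among those that carry a single gene symbol. Of the 31 genes, 30 were measured, out of 18820 genes with such a probe set. The exception was Acadvl, the very-long-chain acyl-CoA dehydrogenase, whose only probe set also carries the symbol of its neighbour Dvl2. The series asks what caspase-1, the protease of the inflammasome, does in the handling of fat by liver and intestine, and it holds 24 single-colour Affymetrix arrays in 8 groups of 3. Wild-type mice of strain C57BL/6 were set against Casp1-null mice, which the labels describe as backcrossed to C57Bl/6; how the allele was made is not stated there. P-values measure only the spread between these samples. All mice were males of 14 to 16 weeks on chow. The liver samples were taken after a fast of 16 h, with no oil. Duodenum, jejunum and ileum were scraped epithelium of mice fasted overnight, gavaged with 200 µL of olive oil and sampled 2 h later. The labels name C57Bl/6J mice of matched age as controls and do not call them littermates, so genotype cannot be told apart from remaining strain differences. Values are log2 expression from robust multi-array averaging (RMA), and a difference is always Casp1-null minus wild type unless stated otherwise. Genes were called where limma's p, adjusted over all probe sets, was below 0.05.

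Fatty acids enter mitochondria through the carnitine shuttle (Cpt1a, Slc25a20, Cpt2). In each turn of beta-oxidation they are then dehydrogenated, hydrated, dehydrogenated again and cleaved by a thiolase, while electron transfer flavoprotein carries the electrons to the respiratory chain. Isomerases and a reductase prepare unsaturated chains such as the oleate of olive oil, and peroxisomes shorten long chains by a parallel set of enzymes. Fasting liver turns the resulting acetyl-CoA into ketone bodies, which other tissues burn. PPAR-alpha is a receptor for fatty acids that drives many of these genes in fasted liver and in enterocytes after a fat meal.

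Within a group, pairs of arrays had a Pearson correlation between 0.9787 and 0.9926 over the probe sets. Casp1 itself was lower in every Casp1-null intestinal array, with a difference of -2.08 in duodenum, -3.07 in jejunum and -2.22 in ileum, whereas in liver it lay under the array median in both genotypes and could not check the labels. The labels do not say whether that probe set covers deleted sequence. The mean level of 7 hepatocyte markers was 12.83 to 13.12 in livers and at most 6.24 in intestines, and that of 8 enterocyte markers was at least 11.41 in intestines and at most 7.42 in livers. Some arrays stood apart. Ileal wild-type array 2 and ileal Casp1-null array 3 had mean levels of 8.89 and 8.60 for 10 markers of stroma and smooth muscle, against 4.38 to 4.63 in the other ileal arrays, and 8.14 and 8.45 for 6 adipocyte markers, against 4.66 to 4.96. Duodenal wild-type array 1 had a mean of 10.27 for 7 markers of exocrine pancreas, against 4.01 to 4.39 in the other duodenal arrays. In bulk samples, fewer cells of a type and less RNA per cell cannot be told apart.

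Across the intestine most of the 30 genes had higher means in Casp1-null mice, and few passed the test. In duodenum 3 of 30 rose and 0 fell, where 0.600% of all genes were called higher and 0.606% lower. In jejunum 2 rose and 0 fell (1.06% and 0.999% of all genes), and in ileum 1 rose and 0 fell (0.420% and 0.473%). With the segments averaged, 3 rose and 0 fell (0.988% and 1.08%). The median difference of the 30 genes was 0.16 in duodenum, 0.11 in jejunum, 0.17 in ileum and 0.12 in liver. Differences lay above 0 for 23 genes in duodenum, 21 in jejunum, 28 in ileum and 20 in liver, where 45.1%, 49.3%, 47.7% and 48.3% of all genes did. The Casp1-null arrays lay wholly above the wild-type arrays for 12 genes in duodenum (11.6% of all genes), 5 in jejunum (10.3%), 12 in ileum (4.49%) and 0 in liver (8.96%). They lay wholly below for 0 genes in duodenum (11.1%), 2 in jejunum (Cpt2 and Decr1; 9.24%), 0 in ileum (4.74%) and 2 in liver (Acaa1b and Hadh; 11.1%). Signs were above 0 in all 3 segments for 16 of the 30 genes, against 17.6% of all genes, and below 0 in all 3 for 0, against 21.3%. Whether the segments came from the same mice is not stated, so the segments may not be independent. Among 62 further genes of the pathway, differences lay above 0 for 36 in duodenum, 35 in jejunum, 40 in ileum and 32 in liver. Their median differences were 0.03, 0.04, 0.11 and 0.01. Both lists were chosen with earlier results of these data known.

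**Figure D1:**
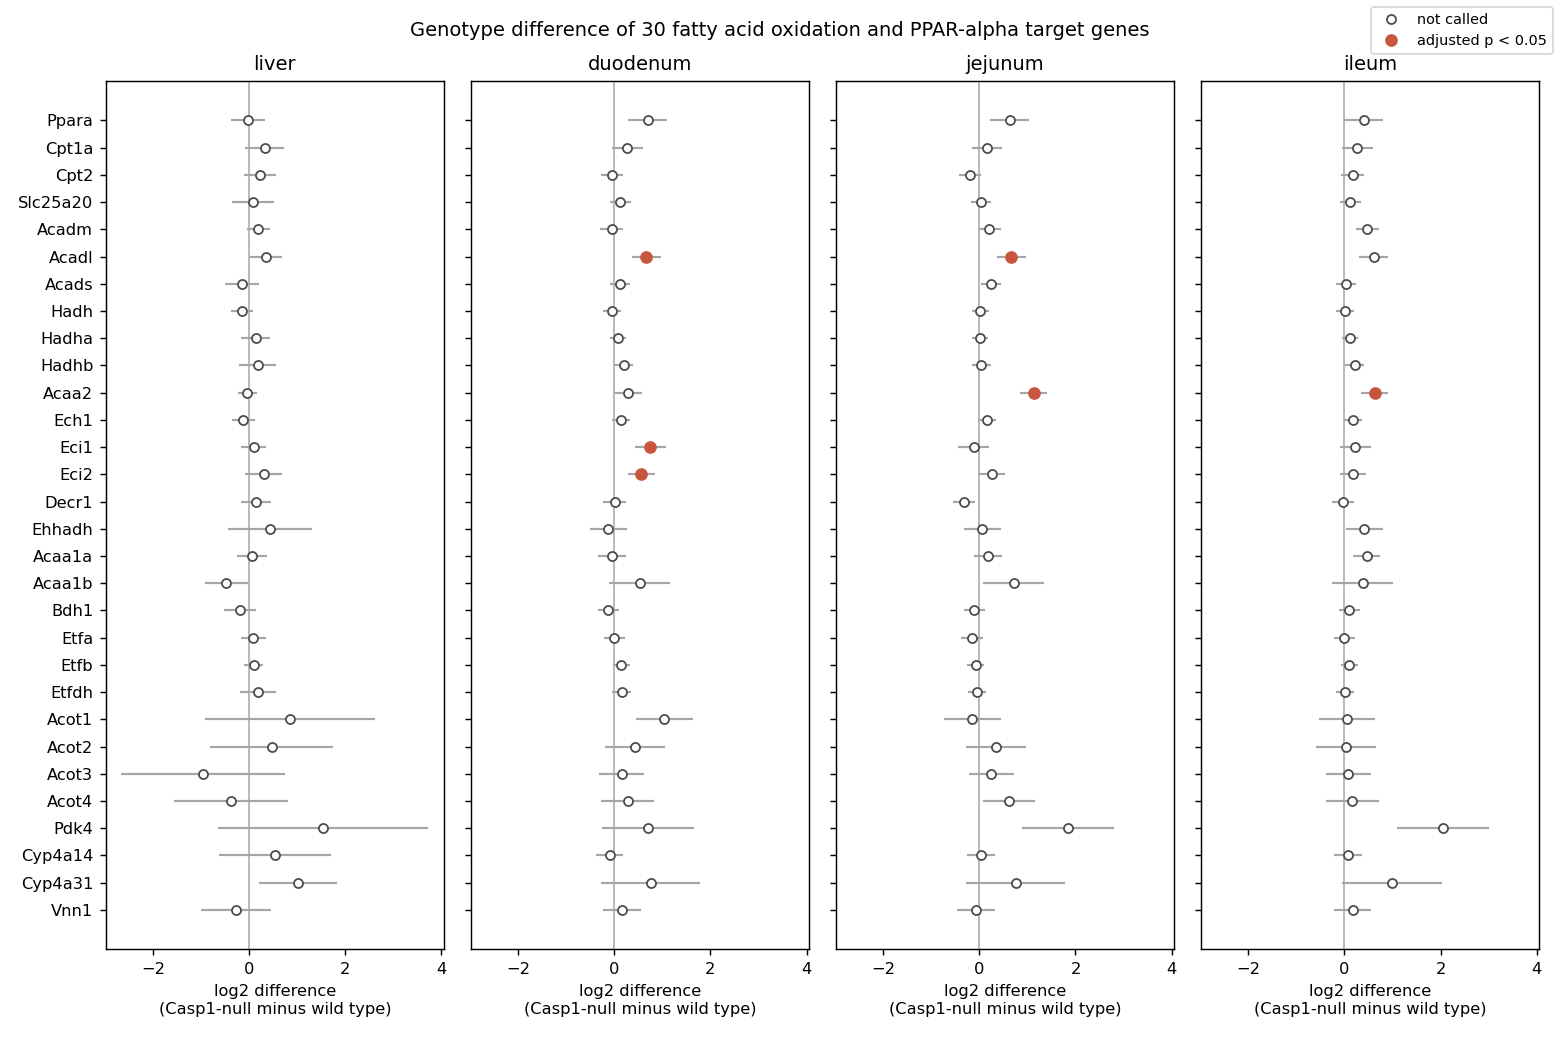
Differences in log2 expression between Casp1-null and wild-type mice for the 30 measured genes (rows) in liver, duodenum, jejunum and ileum (panels), with lines for the 95% confidence interval from limma. Filled points passed the test, which were Acadl, Eci1 and Eci2 in duodenum, Acaa2 and Acadl in jejunum and Acaa2 in ileum.

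In the fasted liver none of the 30 genes was called by limma, where 0.399% of all genes were called higher and 0.526% lower, and 3 of the 30 had an unadjusted p under 0.05, against 12.8% of all genes. No other tool was run on these values. The genotype difference was not shown to depend on the segment for any of the 30 genes either (limma's F test of the interaction, smallest adjusted p = 0.397), with 4 at an unadjusted p under 0.05 and 0.117% of all genes called.

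Ppara, the receptor itself, was not called in any tissue, although its means were higher in each Casp1-null segment. In duodenum the Casp1-null arrays gave 9.15, 8.93 and 9.21 and the wild-type arrays 8.64, 8.33 and 8.24. In jejunum they gave 8.76, 8.58 and 9.18 against 7.93, 8.05 and 8.64, and in ileum 8.43, 8.10 and 8.49 against 7.78, 7.97 and 8.07. The genotypes did not overlap in duodenum and ileum, and in jejunum wild-type array 3 lay above Casp1-null array 2. The differences were 0.69 (SE 0.191, adjusted p = 0.116) in duodenum, 0.63 (SE 0.191, adjusted p = 0.146) in jejunum and 0.58 (SE 0.119, adjusted p = 0.0797) for the mean of segments. In liver the groups overlapped, with a difference of -0.02 (95% CI -0.37 to 0.33).

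The carnitine shuttle did not pass the test at any of its 3 steps. Cpt1a, the outer-membrane transferase that controls entry of fatty acids into mitochondria, differed by 0.27 in duodenum, 0.16 in jejunum, 0.27 in ileum and 0.32 in liver. Its Casp1-null and wild-type arrays overlapped in all tissues but not by much in ileum, where Casp1-null arrays lay at 10.96, 11.02 and 11.02 and wild-type arrays at 10.56, 10.97 and 10.65. Slc25a20, the carrier that moves acylcarnitine across the inner membrane, differed by 0.04 to 0.12 in all 4 tissues. Cpt2, the inner-membrane transferase, differed by -0.05 in duodenum, -0.20 in jejunum, 0.17 in ileum and 0.23 in liver.

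Among the acyl-CoA dehydrogenases, Acadl stood out and Acadm and Acads did not. Acadl encodes the long-chain enzyme of the mitochondrial matrix. Duodenal Casp1-null arrays gave 10.62, 10.81 and 10.92 against 10.12, 10.04 and 10.19 in wild type. Jejunal Casp1-null arrays gave 9.99, 10.08 and 10.33 against 9.20, 9.56 and 9.64, and ileal arrays 10.27, 10.29 and 10.19 against 9.80, 9.80 and 9.34. Every Casp1-null array lay above every wild-type array in each segment. Acadl rose 1.59-fold in duodenum (log2 0.67, SE 0.142, adjusted p = 0.0342) and 1.59-fold in jejunum (log2 0.67, SE 0.142, adjusted p = 0.0277), and with the segments averaged 1.57-fold (log2 0.65, SE 0.0718, adjusted p = 0.00844). In ileum the difference of 0.61 (SE 0.142) missed the threshold (adjusted p = 0.0793).

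In liver, Acadl was 9.79, 10.21 and 10.24 in Casp1-null arrays against 9.73, 9.67 and 9.80 in wild type, so array 1 lay among the wild-type arrays, and the difference of 0.35 was not called (adjusted p = 0.415). The averaged result kept its call whichever replicate number was left out, and lost it with the replicate number as a fixed block (adjusted p = 0.0560). The duodenal call was lost without any 1 of the 3 duodenal wild-type arrays, without duodenal Casp1-null array 2 or 3, and without ileal Casp1-null array 1, which changes only the pooled spread (log2 0.60 to 0.70, adjusted p = 0.0510 to 0.163). The jejunal call was lost without jejunal wild-type array 1 or 2 or Casp1-null array 2 or 3 (log2 0.53 to 0.71, adjusted p = 0.0603 to 0.145). Both calls were lost with the 6 arrays of the segment fitted alone (adjusted p = 0.0599 in duodenum and 0.157 in jejunum). Acadm, the medium-chain enzyme, was 11.44, 11.40 and 11.39 in the ileum of Casp1-null mice and 10.91, 10.88 and 11.01 in wild type, without overlap, yet was not called there (0.47, SE 0.113, adjusted p = 0.0879). In duodenum Acadm was 11.23, 11.04 and 10.81 against 11.19, 10.99 and 11.07 and in jejunum 11.26, 11.12 and 10.84 against 10.88, 10.87 and 10.85, overlapping in both. Acads, the short-chain enzyme, differed by 0.12, 0.24 and 0.03 from duodenum to ileum and by -0.15 in liver.

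Acaa2, a mitochondrial thiolase that cleaves acetyl-CoA from the shortened chain, had the smallest adjusted p of the 30 genes in any genotype comparison. In jejunum its Casp1-null arrays gave 12.54, 12.37 and 12.54 and its wild-type arrays 11.06, 11.41 and 11.56. In ileum they gave 11.75, 12.10 and 12.01 against 11.09, 11.44 and 11.44, and in duodenum 12.94, 12.82 and 12.83 against 12.61, 12.61 and 12.51. The genotypes did not overlap in any segment. In liver they did, at 12.89, 12.91 and 12.82 in Casp1-null and 12.91, 12.88 and 12.96 in wild type.

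Acaa2 rose 2.20-fold in jejunum (log2 1.13, SE 0.132, adjusted p = 0.000302) and 1.55-fold in ileum (log2 0.63, SE 0.132, adjusted p = 0.0402), and with the segments averaged 1.61-fold (log2 0.68, SE 0.0821, adjusted p = 0.0107). In duodenum the difference was 0.29 and was not called. The jejunal call held without each of the 18 arrays in turn (log2 0.99 to 1.24), whereas the ileal call held in 3 of 18 such fits, those without jejunal wild-type array 1 or 3 or ileal Casp1-null array 1, and elsewhere had adjusted p = 0.0522 to 0.193. The ileal call was also lost with the 6 ileal arrays alone, a second quantile normalization, array weights and without both ileal arrays rich in stroma markers (adjusted p = 0.0641 to 0.443). The liver difference of -0.04 was lower than the mean difference of the segments by 0.72 (SE 0.137, adjusted p = 0.0063), the only one of the 30 genes called for that contrast, in which 1.52% of all genes were called lower and 1.25% higher. Between segments the differences for Acaa2 gave an unadjusted p of 0.00151 and did not pass correction (adjusted p = 0.397).

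The other enzymes of the later mitochondrial steps differed little. Hadha and Hadhb, the subunits of the trifunctional protein that acts on long chains, differed by 0.08 and 0.20 in duodenum, 0.01 and 0.04 in jejunum, 0.11 and 0.21 in ileum and 0.14 and 0.18 in liver. Hadh, the dehydrogenase for shorter chains, differed by -0.05 in duodenum, 0.02 in jejunum, 0.01 in ileum and -0.14 in liver. None of these 3 genes was called in any tissue.

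Of the enzymes that handle unsaturated chains, Eci1 and Eci2 rose in the duodenum. Both are enoyl-CoA isomerases, which shift a double bond so that chains such as oleate can re-enter the cycle. Duodenal Eci1 was 9.54, 9.82 and 9.87 in Casp1-null arrays and 9.09, 9.09 and 8.81 in wild type. Duodenal Eci2 was 9.15, 8.73 and 9.21 in Casp1-null arrays and 8.57, 8.38 and 8.44 in wild type. Neither overlapped between genotypes there. Eci1 rose 1.68-fold (log2 0.75, SE 0.152, adjusted p = 0.0264) and Eci2 rose 1.48-fold (log2 0.57, SE 0.128, adjusted p = 0.0488).

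Further along the intestine Eci1 overlapped between genotypes, with Casp1-null arrays at 9.03, 8.96 and 8.73 in jejunum against 8.94, 9.02 and 9.12 in wild type and at 8.48, 9.06 and 8.91 in ileum against 8.40, 8.79 and 8.56. Its difference was -0.12 in jejunum and 0.23 in ileum, and the test of a difference between segments gave an unadjusted p of 0.00403 (adjusted p = 0.570). Eci2 was 8.62, 8.66 and 8.45 in the jejunum of Casp1-null mice against 8.13, 8.51 and 8.33, overlapping. In ileum it was 8.81, 8.55 and 8.70 against 8.51, 8.52 and 8.51, without overlap, and the difference of 0.17 was not called. In liver both isomerases overlapped between genotypes. The duodenal call of Eci1 was lost without any 1 of the 3 duodenal wild-type arrays or without duodenal Casp1-null array 2 or 3 (log2 0.65 to 0.79, highest adjusted p = 0.133), and that of Eci2 in 13 of 18 such fits (adjusted p up to 0.226). With the 6 duodenal arrays alone both calls were lost (adjusted p = 0.0737 for Eci1 and 0.175 for Eci2), and Eci2 also lost its call after a second quantile normalization, with centred arrays and without both ileal arrays rich in stroma markers (adjusted p = 0.0564 to 0.0959). The fits without 1 array that kept Eci2 left out duodenal Casp1-null array 2, jejunal wild-type array 1 or 2, jejunal Casp1-null array 3 or ileal Casp1-null array 2.

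In duodenum, where these isomerases and Acadl rose, markers of other cell types were also higher in Casp1-null arrays. The mean level of 10 stroma and smooth muscle markers was 4.97 to 5.29 in Casp1-null and 4.45 to 4.60 in wild type, with 8 of 10 differences above 0. All 6 endothelial markers (mean level 4.40 to 4.94 against 4.16 to 4.23) and all 6 myeloid markers (6.03 to 6.84 against 5.58 to 5.74) had differences above 0 there. The mean of 5 B and plasma cell markers was 6.28 to 6.91 against 5.44 to 5.63, with 4 of 5 differences above 0, a median of 0.78 and a smallest adjusted p of 0.0545. None of these markers was called. In jejunum, where Acaa2 and Acadl rose, the stroma level was 4.46 to 5.65 in Casp1-null and 4.39 to 4.80 in wild type, with 7 of 10 differences above 0. All 6 myeloid markers (6.08 to 7.28 against 5.69 to 6.09, median difference 0.71) and all 6 endothelial markers (4.21 to 5.29 against 4.10 to 4.27) had differences above 0 there, and all 7 T and NK cell markers below 0 (8.46 to 9.04 against 8.93 to 9.14). In ileum, where Acaa2 rose, 7 of 8 enterocyte markers had differences above 0 (mean level 11.87 to 12.02 against 11.41 to 11.97), and none was called. RMA values have no zero, and the array medians of the intestine lay at 4.87 to 5.01. The part of these cells in the results was not tested.

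**Figure D2:**
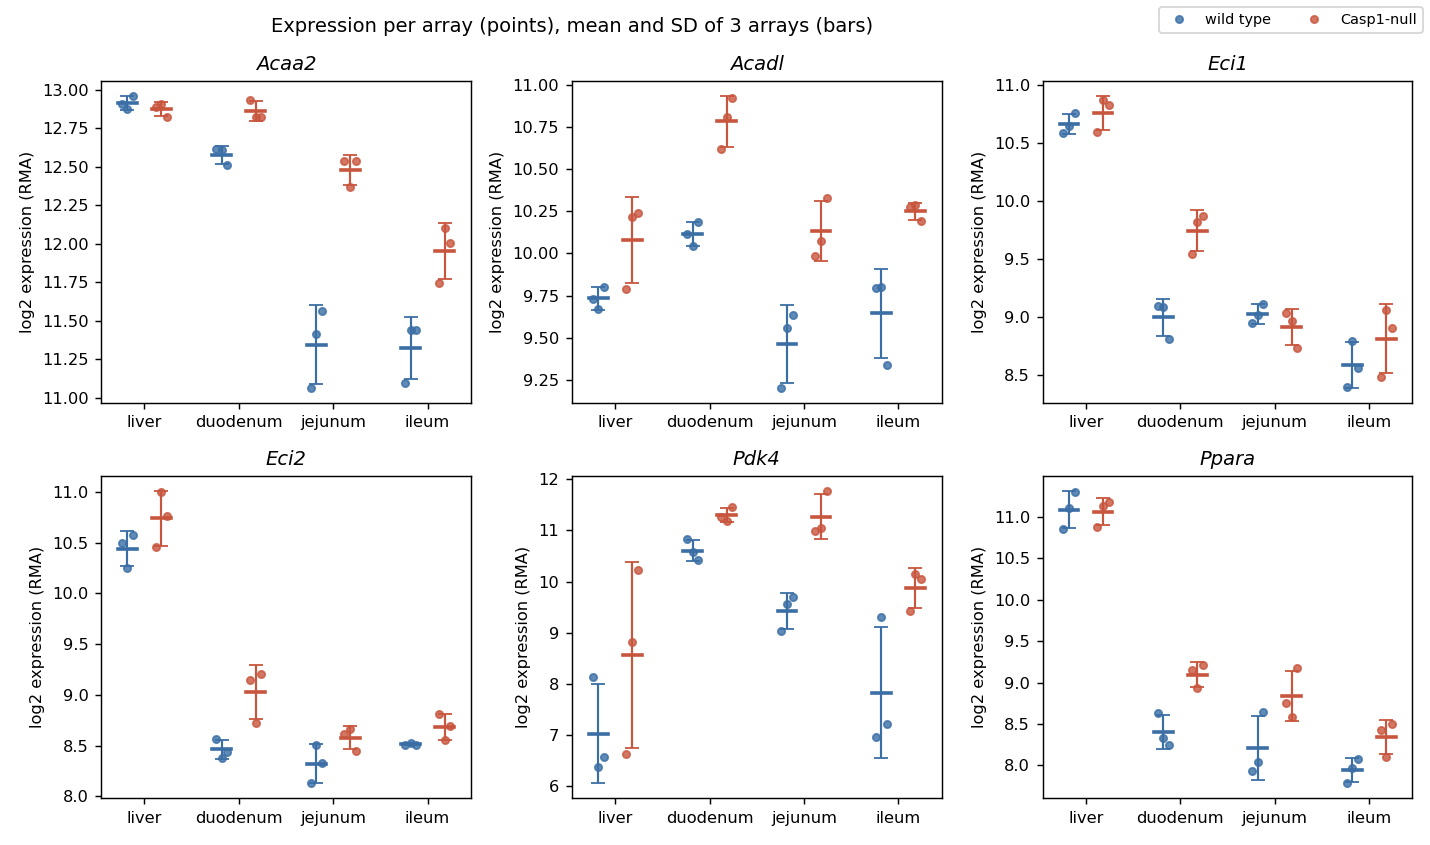
Log2 expression (RMA) of Acaa2, Acadl, Eci1, Eci2, Pdk4 and Ppara in each array of the 4 tissues, as points, with the mean and SD of 3 arrays as bars, wild type in blue and Casp1-null in red. Acadl, Acaa2 and Pdk4 show Casp1-null arrays above wild-type arrays in all 3 segments, while Eci1 separates in duodenum and overlaps in jejunum and ileum.

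The promoters of 26 of the 31 genes were present in the RefSeq table for GRCm38.p6, and the 250 bases before the transcription start were searched for the element that PPAR-alpha binds with its partner RXR. The motifs were a direct repeat of AGGTCA with a spacer of 1 base and the same repeat of the looser AGGNCA, on both strands. Neither was found in any of the 28 windows of these genes, and 0.0335% and 0.338% of all 32851 promoter windows held them. Acaa2, Decr1, Cyp4a14, Cyp4a31 and Vnn1 had no window and were not searched. A single copy, AGGNCA, was added to the search after that result and was found in 20 of the 28 windows, against 51.3% of all windows. By gene it was found for 20 of the 26, against 14807 of all 27025 genes with a window. The windows of Hadha and Hadhb overlap on opposite strands and share the same match, which was counted for each. The stricter single copy AGGTCA was found in 4 of the 28 windows (Acadm, Acadvl, Acot4 and Cpt1a), against 14.0% of all windows. Each of its matches is also a match of AGGNCA. The windows of these genes had a median GC content of 57.8%, against 52.4% over all windows. Such a match is a description of letters only. The windows printed here, 5′ to 3′ on the strand of the gene, are those of Acadl, of Eci1 and of Pdk4, a kinase described further on, with matches to AGGNCA on either strand in capitals. They lie at chr1:66863310-66863559 (minus strand), chr17:24426433-24426682 (plus strand) and chr6:5496279-5496528 (minus strand) of GRCm38.p6. Acadl, which rose in duodenum and jejunum, holds no match in a window of 68.0% GC, whereas Eci1 holds 2 and Pdk4 holds 1.
Acadl: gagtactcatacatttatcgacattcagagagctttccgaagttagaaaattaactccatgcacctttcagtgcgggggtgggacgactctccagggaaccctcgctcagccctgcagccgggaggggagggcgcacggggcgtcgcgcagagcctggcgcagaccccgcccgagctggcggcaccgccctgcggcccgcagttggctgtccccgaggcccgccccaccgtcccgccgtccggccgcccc
Eci1: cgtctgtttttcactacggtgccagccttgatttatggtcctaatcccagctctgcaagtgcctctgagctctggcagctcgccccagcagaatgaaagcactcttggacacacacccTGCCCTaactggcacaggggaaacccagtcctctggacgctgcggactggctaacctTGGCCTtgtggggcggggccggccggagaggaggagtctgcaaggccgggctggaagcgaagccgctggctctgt
Pdk4: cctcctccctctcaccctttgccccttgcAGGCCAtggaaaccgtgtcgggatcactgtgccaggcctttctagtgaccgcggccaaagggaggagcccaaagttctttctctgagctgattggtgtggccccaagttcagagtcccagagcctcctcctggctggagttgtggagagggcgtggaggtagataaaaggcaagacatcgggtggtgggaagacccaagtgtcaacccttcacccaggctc

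The peroxisomal enzymes were not called in any tissue. Ehhadh, the peroxisomal bifunctional enzyme, differed by -0.12 in duodenum, 0.06 in jejunum and 0.42 in ileum. In ileum its Casp1-null arrays lay at 9.83, 9.94 and 10.23 and its wild-type arrays at 9.67, 9.45 and 9.64, without overlap. Acaa1a and Acaa1b, a pair of closely related peroxisomal thiolases, differed by 0.46 and 0.38 in ileum and 0.19 and 0.72 in jejunum. Hybridisation of the transcript of each to the probes of the other was not tested.

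Acaa1b was among the genes with the smallest p in liver. Its hepatic values were 10.18, 10.78 and 10.85 in Casp1-null arrays and 10.96, 11.08 and 11.20 in wild type. All 3 Casp1-null livers lay below all wild-type livers, and the difference of -0.48 (SE 0.188) was not called (adjusted p = 0.403). In the segments its difference lay above 0, so that liver minus the mean of segments came to -1.02 (SE 0.327, adjusted p = 0.139). Ech1, a dienoyl-CoA isomerase of mitochondria and peroxisomes, had a contrast of -0.29 (adjusted p = 0.197). Its Casp1-null and wild-type livers gave 11.25, 11.38 and 11.26 against 11.30, 11.43 and 11.54, its duodena 11.25, 11.14 and 11.15 against 11.16, 11.07 and 10.87, its jejuna 11.03, 10.94 and 10.77 against 10.74, 10.76 and 10.76, and its ilea 10.86, 11.03 and 10.93 against 10.75, 10.75 and 10.78. Decr1, the dienoyl-CoA reductase, had the lowest difference of the 30 genes in jejunum, at 9.21, 9.20 and 8.87 in Casp1-null against 9.29, 9.42 and 9.51 in wild type, and was not called (-0.31, adjusted p = 0.224).

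Bdh1, which interconverts the ketone bodies acetoacetate and beta-hydroxybutyrate and was the only enzyme of ketone body metabolism among the 30, differed by -0.19 in liver, -0.13 in duodenum, -0.11 in jejunum and 0.10 in ileum. The electron transfer genes Etfa and Etfb, subunits of the flavoprotein, and Etfdh, which passes its electrons to ubiquinone, differed by 0.00 to 0.16 in duodenum, -0.15 to -0.05 in jejunum, at most 0.10 in ileum and 0.08 to 0.19 in liver. None of these 4 genes was called.

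The acyl-CoA thioesterases Acot1 to Acot4, which split acyl-CoA into free acid and CoA in cytosol, mitochondria and peroxisomes, are closely related neighbours, and cross-hybridisation between them was not tested. Acot1 had the largest difference of the 30 genes in duodenum, where Casp1-null arrays gave 6.80, 6.38 and 7.15 and wild-type arrays 5.90, 6.15 and 5.15. The groups did not overlap, and the difference of 1.04 (SE 0.275) was not called (adjusted p = 0.101). In jejunum and ileum the differences of Acot1 were -0.15 and 0.05. Acot4 in jejunum was 10.12, 9.82 and 10.21 in Casp1-null against 9.27, 9.19 and 9.85 in wild type, a difference of 0.61 that was not called. Acot2 differed by 0.03 to 0.44 in the segments, and Acot3 lay under the array median in all 6 intestinal groups.

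Pdk4 had the largest differences of all 30 genes in jejunum and ileum. It encodes a kinase that shuts pyruvate dehydrogenase and so spares glucose when fat is burned. In duodenum Casp1-null arrays gave 11.26, 11.18 and 11.46 against 10.83, 10.57 and 10.42 in wild type. In jejunum they gave 10.98, 11.05 and 11.78 against 9.03, 9.56 and 9.69, and in ileum 9.42, 10.14 and 10.06 against 6.96, 9.30 and 7.21. The genotypes did not overlap in any segment, and ileal wild-type array 2 stood well above the other wild-type ilea. With the segments averaged Pdk4 rose 2.89-fold (log2 1.53, SE 0.242, adjusted p = 0.0311). The differences within segments were 0.70 in duodenum, 1.85 in jejunum (SE 0.448, adjusted p = 0.0543) and 2.05 in ileum (SE 0.448, adjusted p = 0.0521), so that jejunum and ileum missed the threshold by little.

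Ileal wild-type array 2 is also the array with the highest level of stroma markers. Its adipocyte marker level of 8.14 lay below the 8.45 of ileal Casp1-null array 3. Without it Pdk4 was called in jejunum (log2 1.85, adjusted p = 0.000968) and in ileum (log2 2.78, adjusted p = 8.15e-05). Without it and ileal Casp1-null array 3, an alternative chosen after seeing the data, the values were 1.85 (adjusted p = 0.0014) and 2.69 (adjusted p = 0.00069). The averaged call held without the wild-type arrays numbered 2 (1.79, adjusted p = 0.0162) and was lost without those of wild type numbered 1 or 3 and without the Casp1-null arrays of any number (1.36 to 1.66, highest adjusted p = 0.126). From duodenum and jejunum alone it was 1.27 (adjusted p = 0.00829). The same alternative called Acaa2, Acadl, Eci2 (0.41, adjusted p = 0.0440) and Ppara (0.66, adjusted p = 0.0468).

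**Figure D3:**
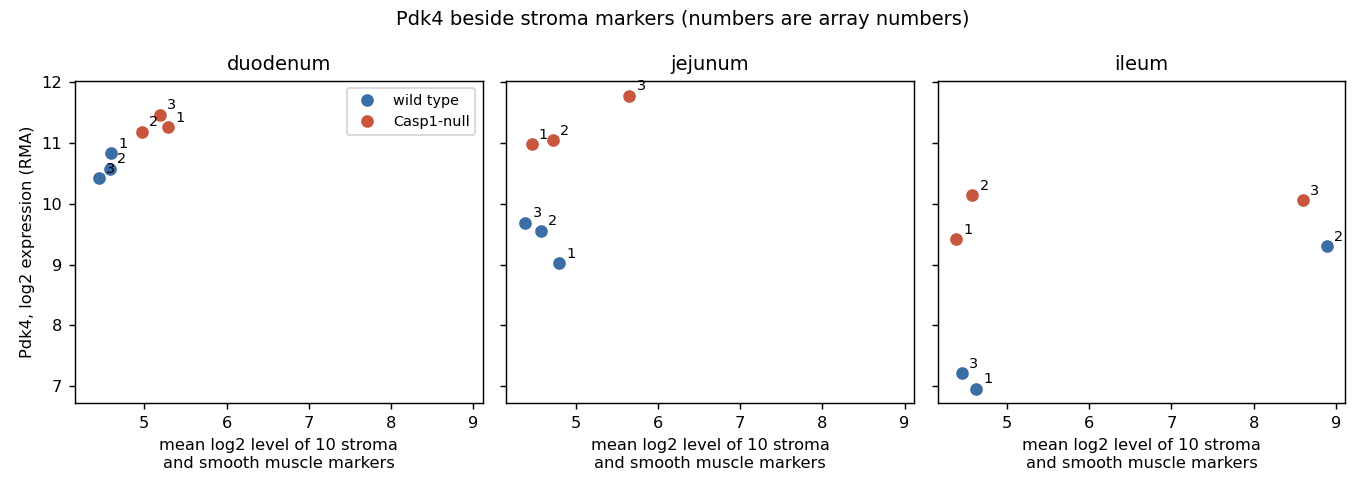
Log2 expression of Pdk4 (vertical) against the mean log2 level of 10 stroma and smooth muscle markers (horizontal) in each array of the 3 segments, with array numbers beside the points, wild type in blue and Casp1-null in red. Ileal wild-type array 2, at a marker level of 8.89, has Pdk4 at 9.30, while the other wild-type ilea, at 4.63 and 4.45, have 6.96 and 7.21. Ileal Casp1-null array 3, at a marker level of 8.60, has Pdk4 at 10.06, between the other Casp1-null ilea at 9.42 and 10.14.

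The other targets of PPAR-alpha followed in the intestine were 2 fatty acid omega-hydroxylases and Vnn1, a pantetheinase of the cell surface. Cyp4a31 had higher Casp1-null means in each segment, at 9.28, 9.21 and 9.55 in duodenum against 8.88, 8.31 and 8.58, with no overlap. In jejunum it was 6.88, 6.41 and 4.98 against 4.31, 5.80 and 5.89, and in ileum 4.87, 4.50 and 5.86 against 3.84, 3.85 and 4.57, overlapping in both. No averaged difference is given for Cyp4a31, since its wild-type ileal mean lay under the array median. Cyp4a14 lay under the array median in all 6 intestinal groups, so no size is given for it there. Vnn1 differed by 0.16 in duodenum, -0.07 in jejunum and 0.17 in ileum.

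In the fasted liver, Casp1-null array 1 differed from arrays 2 and 3 for most of the 30 genes. It was the lowest of the 3 for 25 of them, against 34.3% of all genes, the exceptions being Acaa2, Acads, Bdh1, Etfa and Hadh. Arrays 2 and 3 lay above all 3 wild-type livers for 18 of the 30, against 16.4% of all genes, a count made after the values had been seen. Pdk4 was 6.63, 8.82 and 10.24 in Casp1-null livers 1, 2 and 3 and 8.14, 6.37 and 6.56 in wild type. Acot1 was 6.13, 8.68 and 8.92 against 6.90, 6.56 and 7.72. Ehhadh was 10.74, 11.99 and 12.10 against 11.34, 10.83 and 11.36. For these genes array 1 lay within or below the wild-type range and the other arrays above it.

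The omega-hydroxylases showed the split as clearly. Cyp4a14 was 11.12, 13.00 and 12.89 in Casp1-null livers against 11.65, 11.63 and 12.09 in wild type. Cyp4a31 was 10.68, 11.91 and 11.95 against 10.38, 10.37 and 10.73, with the smallest p of the 30 genes in liver (1.02, SE 0.341, adjusted p = 0.308). The SD of the Casp1-null livers was above 1 for 6 of the 30 genes, against 0.298% of all genes, and its median over the 30 genes was 0.264, against 0.139 in wild-type livers and 0.142 for all genes in Casp1-null livers. Without Casp1-null array 1, Cyp4a31 (1.44, adjusted p = 0.0152) and Cyp4a14 (1.15, adjusted p = 0.0448) were called higher in liver. Without that array the genotype difference of Acot1 was also larger in liver than in the mean of segments, by 1.42 (adjusted p = 0.0485), and that of Cyp4a14 was called too, with no size given since its intestinal values lay under the array median. Without Casp1-null array 3, Acot3 was also called for a lower genotype difference in liver than in the segments (adjusted p = 0.0489), with no size given because it lay under the array median in all intestinal groups.

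Array 1 also had the highest stroma marker level of the 6 livers, at 7.10 against 5.96 to 6.48. Its hepatocyte marker level of 12.97 lay within the range of the other livers, 12.83 to 13.12. The part of stroma in its values was not tested.

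**Figure D4:**
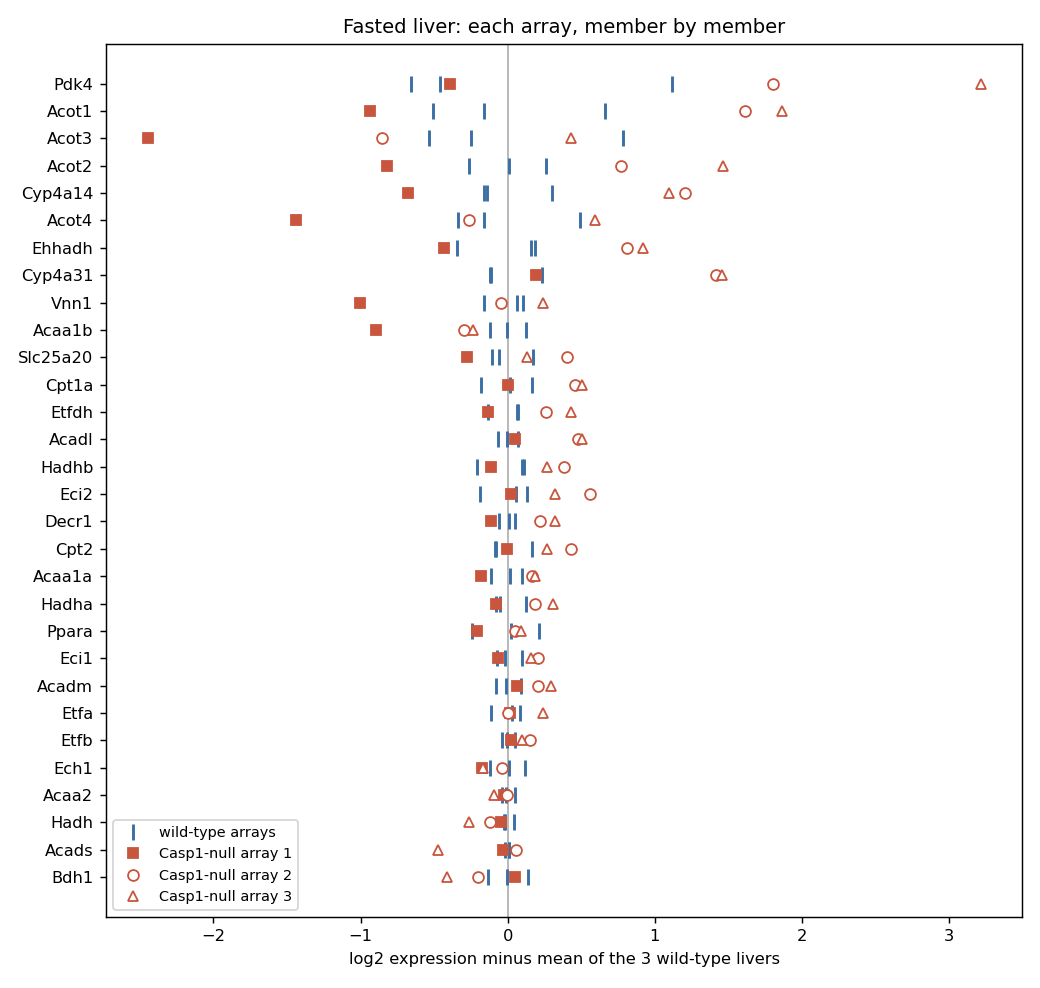
Log2 expression in each liver array minus the mean of the 3 wild-type livers, for each of the 30 genes, ordered by how far Casp1-null array 1 lay from arrays 2 and 3. Wild-type arrays are bars, Casp1-null array 1 is a filled square, and arrays 2 and 3 are an open circle and an open triangle; for Pdk4, Acot1, Acot2, Cyp4a14 and Ehhadh the open symbols lie to the right of all bars and the square does not.

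Along the wild-type intestine most of the genes were highest in duodenum. From duodenum to jejunum 9 of 30 were lower and 1 higher, where 4.38% of all genes were called lower and 3.37% higher. The largest differences among those lower were for Cyp4a31 (-3.25, adjusted p = 0.000785), Acaa1b (-1.54, adjusted p = 0.00627), Acaa2 (-1.23, adjusted p = 4.07e-05) and Ehhadh (-0.998, adjusted p = 0.00365), and Vnn1 was the gene called higher (1.27, adjusted p = 0.000582). From jejunum to ileum 4 were lower and 2 higher (6.74% and 8.70% of all genes). Pdk4 (-1.60), Acaa1b (-0.99), Acaa1a (-0.76) and Hadh (-0.43) were lower, and Slc25a20 (0.66) and Acads (0.57) were higher. Without ileal wild-type array 2 the difference of Pdk4 was -2.34 (adjusted p = 8.33e-05). Between the ends, ileum against duodenum, 17 were lower and 2 higher (13.2% and 14.7%), and 26 of 30 differences lay below 0, where 43.3% of all genes lay above 0.

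The steepest differences between duodenum and ileum were those of Cyp4a31, Pdk4, Acaa1b and Ehhadh. Cyp4a31 was at least 12.7-fold lower in wild-type ileum than in duodenum, a bound because its ileal mean was under the array median. Pdk4 was 6.87-fold lower (adjusted p = 0.000326), Acaa1b 5.76-fold lower and Ehhadh 2.82-fold lower, and all 3 peroxisomal enzymes were called lower. The peroxisomal Acaa1a was 2.39-fold lower and the mitochondrial Acaa2 2.38-fold lower. Without ileal wild-type array 2, rich in stroma markers, the log2 difference of Pdk4 went from -2.78 to -3.52 (adjusted p = 6.94e-07). Vnn1 (1.18) and Slc25a20 (0.31) were the genes called higher, so the carrier ran against the transferase Cpt2 (-0.55, adjusted p = 0.0018). In Casp1-null mice 27 of 30 differences lay below 0 both for jejunum and for ileum against duodenum. For ileum against jejunum 15 lay below 0 in Casp1-null and 22 in wild type (47.4% of all genes above 0 in wild type), and the interaction test called none of the 30 genes.

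With both ileal arrays rich in stroma markers left out, the count of genes higher in ileum than duodenum was 1. Leaving out jejunal wild-type array 2 or ileal wild-type array 3 took the count of genes lower in ileum than jejunum from 4 to 2. The same lowering of the count of higher genes from 2 to 1 between ileum and duodenum came without wild-type array 1 or 2 of duodenum, wild-type array 2 or Casp1-null array 2 of jejunum, or any wild-type ileum.

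**Figure D5:**
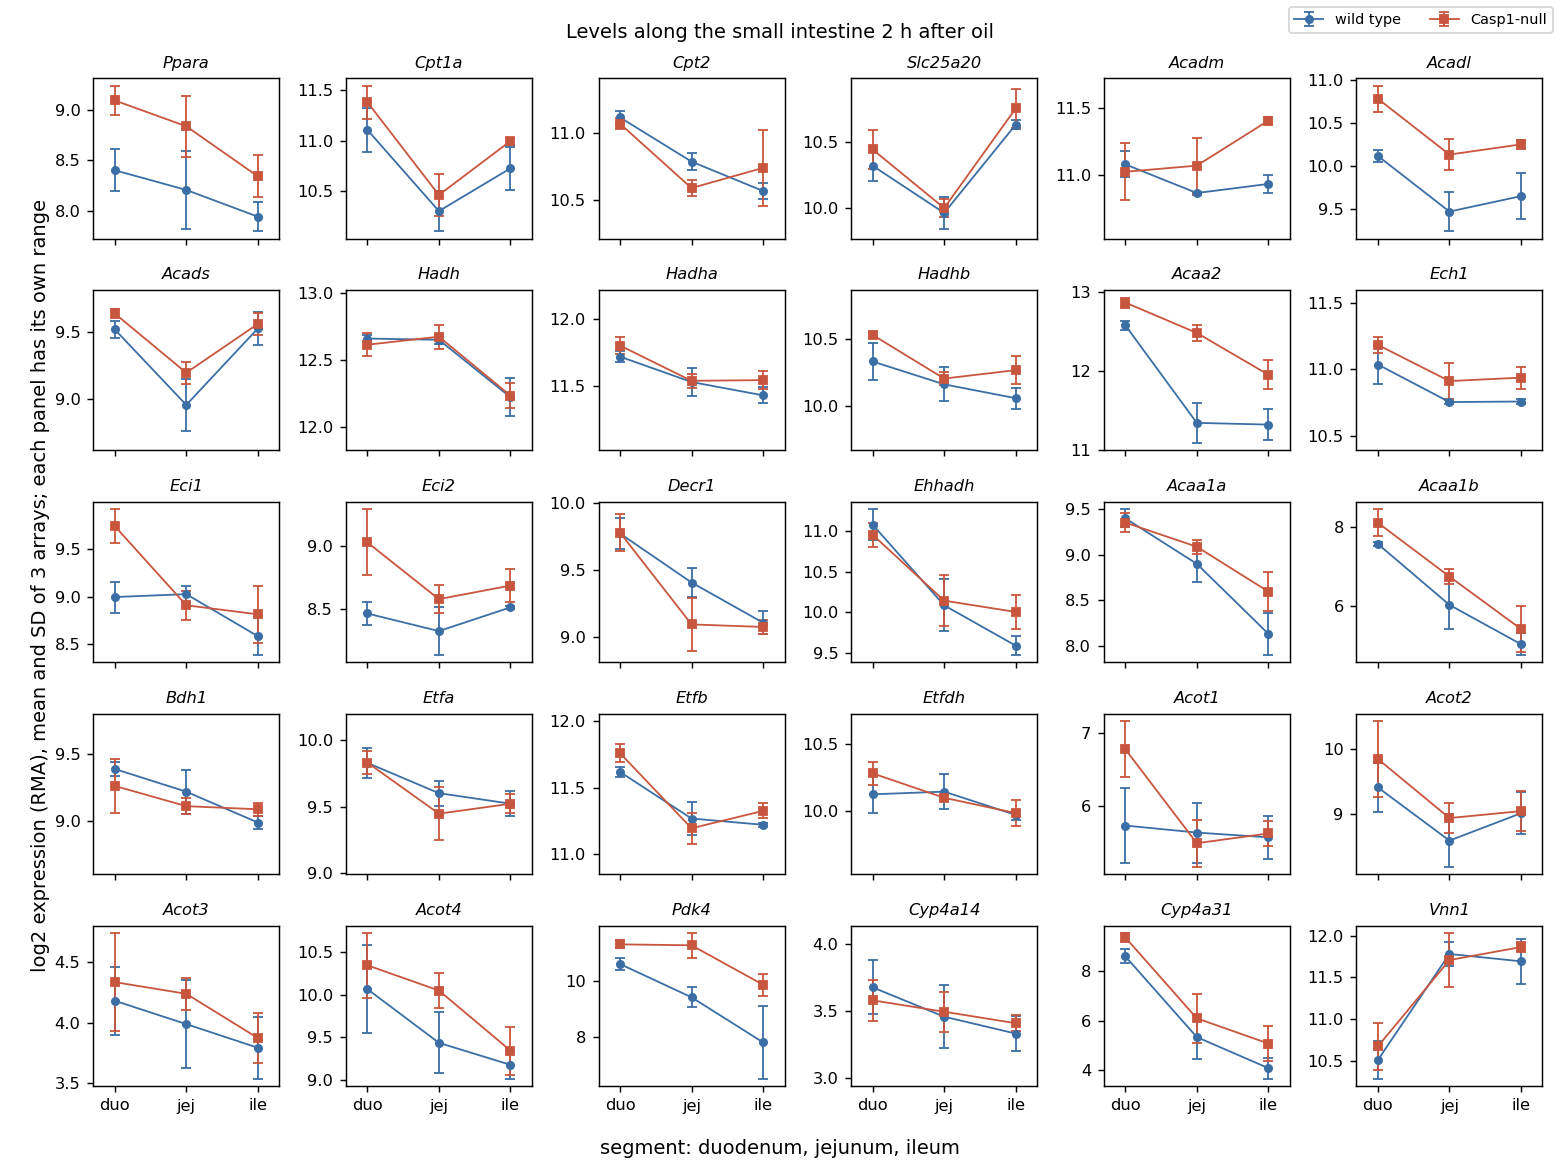
Mean log2 expression (RMA) with SD of 3 arrays in duodenum, jejunum and ileum for each of the 30 genes, each panel with its own vertical range, wild type as blue circles and Casp1-null as red squares. Most lines run downwards from duodenum, Vnn1 runs upwards, and Cpt1a, Slc25a20 and Acads dip in jejunum.

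Wild-type liver and intestine differed in feeding state as well as tissue, since livers were fasted without oil. Liver exceeded the mean of the segments for 20 of the 30 genes and was lower for 3, where 39.0% of all genes were called higher and 31.1% lower. Cyp4a14 was at least 119.5-fold higher and Cyp4a31 at least 18.5-fold higher. These are bounds, since Cyp4a14 lay under the array median in every segment and Cyp4a31 in ileum. Acaa1b was 29.2-fold higher (log2 4.87, adjusted p = 3.34e-13) and Acot3 at least 5.11-fold higher, and Ppara was higher by a log2 difference of 2.91 (SE 0.151, adjusted p = 1.47e-12). Pdk4 (-2.27, adjusted p = 0.00141), Vnn1 (-0.95) and Hadh (-0.21) were lower in liver. The trifunctional subunits Hadha and Hadhb and the enzyme Acadl differed by at most 0.03 in size, and none of these was called. With each array centred on its median, which moves the median difference of all probe sets from 0.06 to -0.21, 8 genes were lower in liver.

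Of 74 further genes of the pathway, 62 were measured, and the others were not analysed here. In ileum 3 of the 62 rose and 1 fell, where 0.420% of all genes were called higher and 0.473% lower. Enterocyte markers had 7 of 8 differences above 0 there too, and their part in these values was not tested. Fabp1, the fatty acid binding protein of liver and proximal intestine, was 10.49, 10.96 and 11.10 in Casp1-null ileum against 9.74, 8.83 and 8.70 in wild type, without overlap, and rose 3.39-fold (log2 1.76, adjusted p = 0.000381). Slc27a2, an acyl-CoA synthetase that takes up fatty acids (0.78), and the epoxide hydrolase Ephx2 (0.96) also rose in ileum, and Acad9 fell by 0.51. In jejunum 1 rose and 0 fell (1.06% and 0.999% of all genes). It was Ppargc1a, a coactivator of PPAR-alpha and of mitochondrial genes, at 10.05, 9.53 and 9.80 against 8.88, 8.99 and 8.44 (log2 1.02, adjusted p = 0.00813). In duodenum the receptor gene Ppard fell by 0.67 (adjusted p = 0.0346) and 0 rose (0.606% and 0.600% of all genes). With the segments averaged Fabp1 (0.57), Ppargc1a (0.57) and Slc27a2 (0.45) rose and Ppard fell by 0.44 (0.988% and 1.08% of all genes).

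In liver 2 of the 62 genes fell and 0 rose, where 0.526% of all genes were called lower and 0.399% higher. Bdh2, a cytosolic dehydrogenase, was 7.88, 7.32 and 7.17 in Casp1-null livers against 8.73, 8.87 and 8.70 in wild type, and fell by 1.31 (adjusted p = 0.0424). Pdk1, a kinase of pyruvate dehydrogenase like Pdk4, was 8.17, 7.93 and 7.87 against 8.79, 8.77 and 8.72, and fell by 0.77 (adjusted p = 0.0385). The genotypes did not overlap for either gene, and array 1 was the Casp1-null liver nearest to wild type. The genotype difference differed between segments for 1 of the 62 genes, Fabp1 (adjusted p = 0.0354), where 0.117% of all genes were called. Between liver and the mean of segments it differed for 7, with Oxct1, which activates ketone bodies for burning, higher in liver (1.00, adjusted p = 0.00342) and Pdk1, Bdh2, Pparg, Fabp2, Acad8 and Aldh3a2 lower. For that contrast 1.25% of all genes were called higher and 1.52% lower.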

How the data were processed

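Total RNA (100 ng per sample, RNA integrity number above 8.0) was hybridised to 24 Affymetrix arrays, 3 per group. The deposited values are log2 expression made by the authors with RMA, per the submitters' processing notes; its version, the annotation and the background settings are not given in the sources used here. Probe sets (35556) were named from the platform annotation, of which 21218 carry 1 symbol, 1881 several and 12457 none. Groups were compared with limma 3.58.1 (lmFit, eBayes, R 4.3.3), and p-values were adjusted by Benjamini-Hochberg over all probe sets. Liver was fitted on its 6 arrays, the segments on 18 arrays together, contrasts of liver with the segments on all 24, and the mean of segments on 6 averages, 1 per genotype and replicate number. Precision is limited by having 3 arrays per group, for which the smallest p of an exact permutation test would be 0.1. Where the mean of a group lay below the lowest median among that tissue's arrays, "at least" folds use that median instead. Promoters came from RefSeq. The scripts were tested on simulated data.

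Values in every array are given for genes called in a genotype comparison and, where fewer than 3 were, for those with the smallest p up to 3; in wild-type comparisons the 4 largest called rises and falls are named. Genes beyond this rule were chosen after their values were seen. The 31 genes and the other lists were chosen with earlier results of these data known. The alternatives tried were the filter, normalization, centring, array weights, robust fitting, averaging of a gene's probe sets, the arrays fitted, replicate blocks and leaving out each array.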

Additional observations from a re-analysis of the deposited data

Results flagged for a closer look

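For Acaa2, a mitochondrial thiolase, the genotype difference itself differed between liver and intestine. It was -0.04 in liver and 0.68 in the mean of the segments, and limma's test of liver minus segments gave -0.72 (95% CI -1.01 to -0.44, adjusted p = 0.0063). All 9 Casp1-null intestinal arrays lay above the wild-type arrays of their own segment, while the livers overlapped. The call held without each of the 24 arrays in turn (-0.76 to -0.68, adjusted p = 0.0031 to 0.0268). Livers were fasted and segments had received oil, so tissue and feeding state cannot be told apart.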

How the results depend on the processing

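No result reversed. Of the values for single called genes under all alternatives, those leaving out 1 array included, 176 kept their side of the threshold and 62 lost the call. With the 6 arrays of a segment fitted alone, 0 genes were called higher in duodenum and 0 in ileum, and Acadl lost its call in jejunum. In ileum 2 were called with only probe sets above the median, with centred arrays and with array weights, and 0 after a second quantile normalization. For the mean of segments 5 were called with that filter, 5 in the fit of 18 arrays and 5 from duodenum and jejunum alone. In wild type, array weights called 14 genes lower in jejunum than duodenum, centring called 1 higher in ileum than duodenum and 8 lower in liver, and leaving out both ileal arrays high in stroma markers called 1 higher in ileum than duodenum.

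Leaving out 1 array at a time gave 0 to 2 genes higher in liver, 0 to 3 in duodenum, 1 to 3 in jejunum, 0 to 1 in ileum and 2 to 3 for the mean of segments. Over all genes the calls in either direction numbered 42 to 325 in liver and 140 to 271 in duodenum. They numbered 196 to 435 in jejunum, 109 to 176 in ileum and 161 to 265 for the mean of segments. Liver minus segments gave 0 to 2 higher and 1 to 2 lower, with 316 to 780 of all genes called in either direction. Wild-type counts were 7 to 10 lower for jejunum against duodenum, 2 to 5 lower for ileum against jejunum, and 1 to 2 higher and 13 to 18 lower for ileum against duodenum. For liver against the segments they were 18 to 20 higher and 2 to 3 lower. Over all genes these wild-type fits called 880 to 1695 for jejunum against duodenum and 1869 to 3054 for ileum against jejunum. They called 4134 to 5498 for ileum against duodenum and 12219 to 13298 for liver against the segments.

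With the replicate number as a fixed block, 0 genes were called for the mean of segments (adjusted p = 0.0549 for Acaa2, 0.0560 for Acadl and 0.0635 for Pdk4) and 1 was higher in ileum than duodenum. The numbers were neither shown to pair the samples nor shown not to. Deviations of same-numbered arrays correlated at -0.163 to 0.243 (median 0.0604), over 0.1 in 7 of 18 pairs. Those of differently numbered arrays correlated at -0.258 to 0.24 (median -0.0398), over 0.1 in 6 of 36 pairs. A random replicate block gave the same counts as no block in the genotype comparisons where it was fitted. The causes of these changes were not tested.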

Other observations

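In the ileum of Casp1-null mice 3 genes of fatty acid uptake and turnover that are abundant in proximal intestine had values between those of wild-type ileum and wild-type jejunum. Fabp1 was 10.49, 10.96 and 11.10 there, against 9.74, 8.83 and 8.70 in wild-type ileum and 12.62, 12.79 and 12.78 in wild-type jejunum. Slc27a2 was 9.81, 9.82 and 9.99, against 8.73, 9.28 and 9.27 and 10.61, 10.74 and 11.07. Ephx2 was 10.31, 9.91 and 10.57, against 9.49, 8.76 and 9.65 and 11.32, 11.41 and 11.37. These genes were singled out after their values were seen, and they are the 3 of the 62 further genes called higher in ileum. Their place above wild-type ileum thus follows from how they were chosen. Acaa2, the only one of the 30 genes called higher in ileum, had a Casp1-null ileal mean of 11.952, above the 11.345 of wild-type jejunum. In the same ilea the mean level of 8 enterocyte markers was 11.87 to 12.02 in Casp1-null and 11.41 to 11.97 in wild type, with 7 of 8 differences above 0 and up to 1.21; their part in these values was not tested.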
